A study of Rattus norvegicus with 28 samples.

Results

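The genes described here encode the collagens, the laminins and the proteins that assemble or crosslink them into matrix, and they were measured in the spinal cord of rats before and after a severe contusion. They were chosen by name alone, as every non-control feature of the array whose gene name begins as a collagen chain, a laminin chain, a fibulin, an emilin, a lysyl oxidase or a SPARC protein does, together with Fbn1, Fbn2, Postn, Fn1 and Cthrc1. This gave 66 of 35469 features, read by 102 probes, and 30 of the 66 had more than 1 probe. Col4a3bp, a lipid transfer protein, and Loxhd1, a protein of hair cells, matched the names without being matrix proteins, and they were kept and are counted.

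The study used adult female Sprague Dawley rats and 28 single-dye arrays, 4 in each of 7 groups, with 4 animals per group according to its methods. T0 was cord from animals labelled sham, which the study calls uninjured. T1, T2, T4 and T8 were cord taken 1, 2, 4 and 8 weeks after a 250 kdyn contusion at the eighth thoracic vertebra. T1_NPC was cord given neural precursor cells right after the injury and taken at week 1, and T2_NPC was cord given them 1 week after injury and taken at week 2. The cells were grown as neurospheres from the cords of injured adult rats and were injected rostral and caudal to the lesion, while injured controls received medium without cells. All operated rats received an antibiotic, an opioid and, dated from the day before transplantation, the immunosuppressant tacrolimus. Each sample was 1.5 cm of cord that included the injury epicentre. The labels give segments T6 to T10 without the dura mater for 6 groups, and T7 to T10 with no word on the dura for T2_NPC. Donor and host cells were both of the rat, so the probes do not separate their transcripts.

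Matrix is scarce in the healthy cord, where it lies mainly in the basement membranes of blood vessels and in the meninges. After a contusion, fibroblasts and perivascular cells gather in the lesion core and lay down a fibrotic scar of fibrillar collagen and fibronectin, which astrocytes border. Fibrillar collagens are secreted as triple helices of repeated glycine triplets, trimmed at their ends, assembled into fibrils and crosslinked by lysyl oxidases. Basement membranes are sheets in which a laminin network and a type IV collagen network are tied together by nidogens and the heparan sulfate proteoglycans perlecan and agrin.

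Promoter sequences of some members are shown as background, and their part in the results was not tested. Col4a1 and Col4a2 encode the chains of the common type IV collagen molecule, and they are transcribed away from each other from neighbouring start sites. The interval between their annotated starts, 76 bases at chr16:84885521-84885596 of GRCr8 (RefSeq, plus strand), carried the letters GGGCGG of an Sp1-type GC box on the minus strand, given in capitals.
Col4a1 to Col4a2: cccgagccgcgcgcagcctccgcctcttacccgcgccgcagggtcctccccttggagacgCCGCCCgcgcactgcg
Postn had the largest fall from T1 to T8 of the 66 genes, and its promoter is given for that reason. The 250 bases before its start, chr2:140677811-140678060 of GRCr8 (RefSeq, plus strand), held the TATA box letters TATAAA and the Smad-binding letters CAGAC, both in capitals.
Postn upstream: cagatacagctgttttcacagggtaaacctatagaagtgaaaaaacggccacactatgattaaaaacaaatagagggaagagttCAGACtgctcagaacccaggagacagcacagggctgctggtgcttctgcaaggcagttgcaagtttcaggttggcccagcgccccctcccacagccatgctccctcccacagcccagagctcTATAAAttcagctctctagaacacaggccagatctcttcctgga
In the 250 bases upstream of 54 annotated starts of 49 members, searched on both strands, GGGCGG was present in 26 (48.1%, against 30.5% of all 33469 promoters in the table), CAGAC in 29 (53.7%, against 42.9%), CCAAT in 11 (20.4%, against 34.0%) and TATAAA in 5 (9.26%, against 12.9%). Such letters are matches in a window and not sites shown to be used, and 5 of the 54 starts lay at an ATG, so that those gene models began at the coding sequence.

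Probes of the same gene can read differently, and a probe from each of Col9a1 and Col4a1, whose probes did so, is given for that reason. The downstream of the Col9a1 probes, placed by the array annotation at chr9:22976816-22982770 of rn4 on the plus strand, a span longer than the probe, has the glycine codon letters GGN at every ninth base, in capitals, which is the repeat of the collagen triple helix.
Col9a1 probe: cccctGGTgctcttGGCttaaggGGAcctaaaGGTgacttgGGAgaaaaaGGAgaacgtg
The upstream Col4a1 probe lies at chr16:83045409-83045468 of rn4 on the plus strand, 112137 bases from the downstream one, and all its letters are given in lower case.
Col4a1 upstream probe: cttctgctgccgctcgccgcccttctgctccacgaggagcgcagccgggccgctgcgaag

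Values are log2 intensities after quantile normalisation, so a difference of 1 is a change of 2-fold, and they compare groups for 1 gene but not 1 gene with another. Of the 66 genes, 51 were well above background on all 28 arrays, 13 on some, and Col11a1 and Col17a1 on none. The scanner outputs and the table of log2 values disagreed about the sample behind 16 of the 28 arrays, since the rank order of a scanner output matched the column of another sample. The table, which the study tested, is used below. With scanner outputs under the samples they were deposited for, no member was called in any comparison, and with the 12 arrays on which the sources agree, 43, 45, 40 and 44 members were called in T1, T2, T4 and T8 against T0, although T1 and T4 then have 1 array each, taken to vary like the other groups. T1_NPC replicate 2 stood apart from its group, with 17.7% of all features more than 1 from the mean of the other T1_NPC arrays, where the other 3 had 5.97% to 9.16%. Fewer cells of a type and less RNA per cell cannot be told apart in such bulk tissue. A call means an adjusted p under 0.05 in limma, by Benjamini-Hochberg over all features.

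Most matrix genes were higher than in uninjured cord at week 1, and most were still higher at week 8. At T1 against T0, 49 of the 66 were higher and 3 lower, where 19.1% of all features were higher and 25.1% lower (44.1% together). For T2 the counts were 45 higher and 2 lower (17.7% and 22.2% of all features, 40% together). For T4 they were 44 and 2 (17.5%, 21% and 38.5%), and for T8 45 and 3 (18.2%, 21.5% and 39.7%). The median log2 difference from T0 over the 66 was 1.51 in week 1, 1.42 in week 2, 1.23 in week 4 and 1.23 in week 8, beside -0.10, -0.06, -0.06 and -0.05 over all features. Higher at all 4 times were 41 members, where 12.3% of all features were. The mean peaked at T1 for 28 of them, and at T2, T4 and T8 for 6, 3 and 4. Col11a2 was lower at all 4 times, as 15.9% of all features were, and 8 members were called at none. Some of these calls were lost when 1 array was left out: Col4a1, Col9a3 and Emilin3 at T1, Col22a1, Col4a1, Col9a1 and Lama3 at T2, Col22a1, Col27a1, Col4a3, Fbln5 and Fbn2 at T4, and Col11a2, Col20a1, Emilin3, Fbln5, Fbln7 and Loxhd1 at T8.

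**Figure D1:**
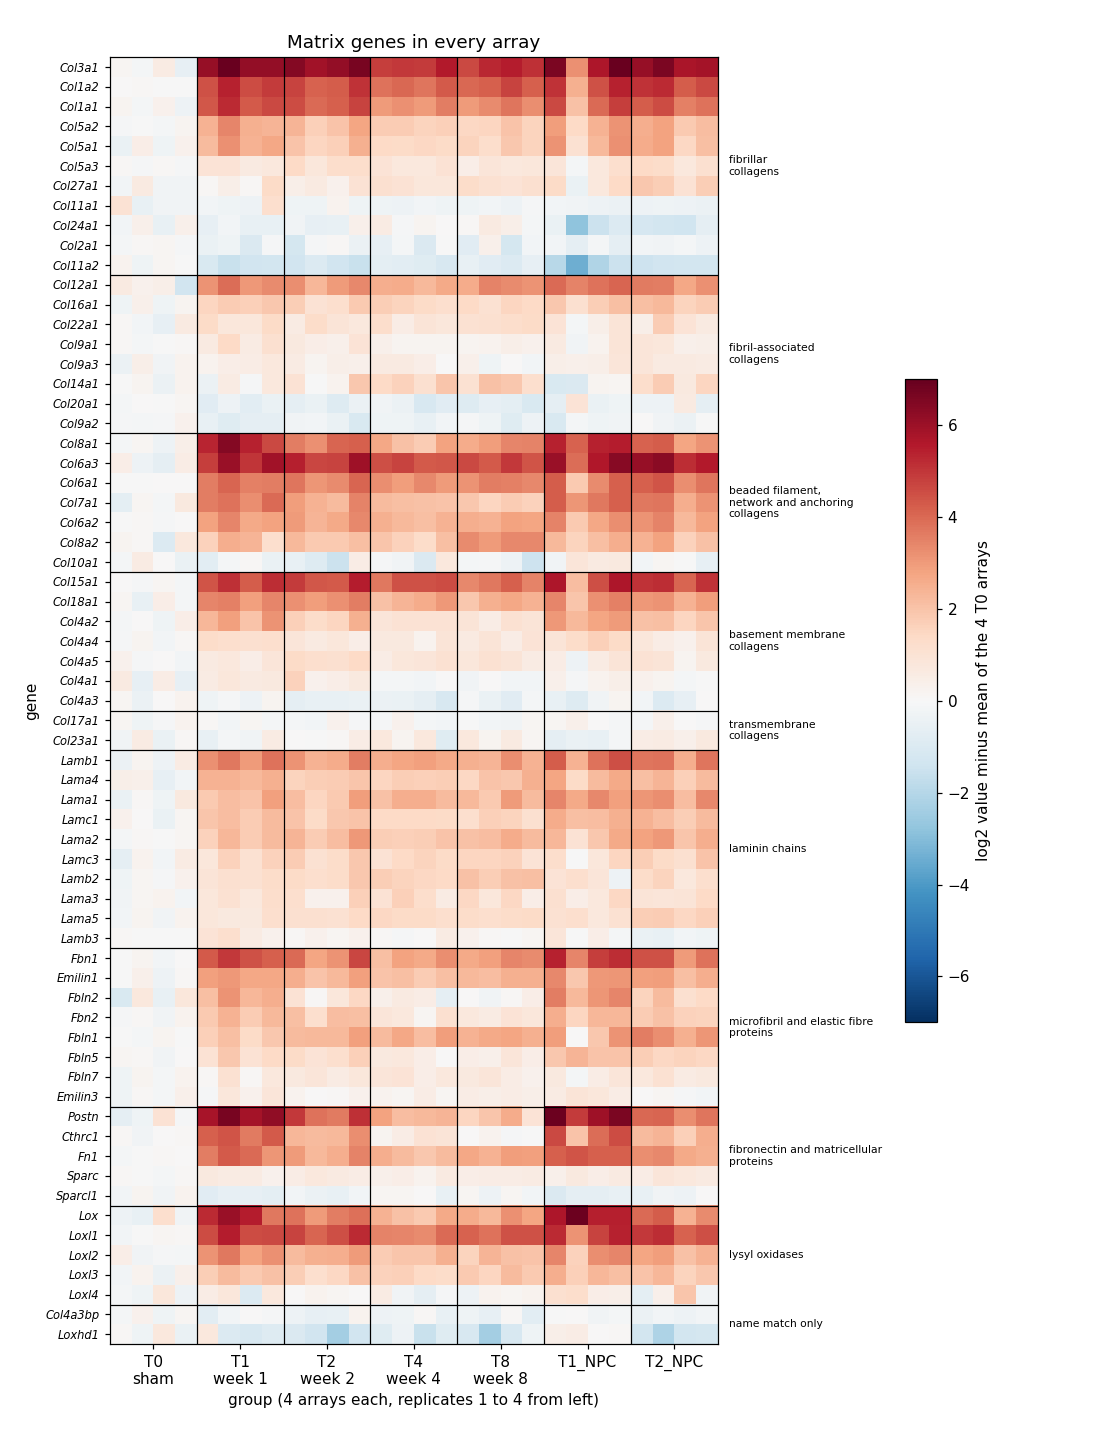
Difference of each of 65 of the genes (rows, by class) from the mean of the 4 T0 arrays in each of the 28 arrays (columns, by group, replicates 1 to 4 from the left), as log2 colour from blue (lower) to red (higher). Most rows are red in every injured group, Cthrc1 and Postn fade from T1 to T8, and the second T1_NPC column is paler than its neighbours in many fibrillar collagen rows.

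Type I and type III collagen, the main fibrils of scar tissue, had some of the largest rises. Col1a1 read 10.61, 10.24, 10.68 and 10.05 in T0 and 14.77, 15.62, 14.71 and 15 in T1. It read 14.97, 14.36, 14.56 and 15.13 in T2, 13.36, 13.59, 13.37 and 13.99 in T4 and 13.38, 13.71, 14.15 and 13.67 in T8. Every injured array was above every T0 array, and the mean was 24.7-fold higher at T1 (log2 4.63 ± 0.40 SE, adjusted p = 1.92e-09) and 10.1-fold at T8 (log2 3.33, adjusted p = 4.34e-07). Its 3 probes, at chr10:83637903-83638236 of rn4, all rose at T1, by 4.19 to 5.07. At T4 and T8 the Col1a1 probes differed by more than 1 log2 in their change. Its partner chain Col1a2 read 10.58, 10.67, 10.55 and 10.53 in T0, 15.04, 15.97, 15.12 and 15.45 in T1 and 14.62, 14.76, 15.30 and 14.76 in T8. It read 15.31, 14.73, 14.83 and 15.65 in T2 and 14.36, 14.62, 14.35 and 14.86 in T4, again with no overlap with T0. It was 28.2-fold higher at T1 and 19.4-fold at T8 (adjusted p = 9.84e-10 and 1e-08), on a mean of probes that differed by more than 1 log2 in their change at T1.

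Col3a1, whose product mixes with type I collagen in young scar, had the largest rise of the 66 at every time. The gene, read by a probe at chr9:44317465-44317524 of rn4, was at 9.48, 9.19, 9.92 and 8.73 in T0 and at 15.45, 16.27, 15.49 and 15.49 in T1. Later it read 15.76, 15.21, 15.47 and 15.99 in T2, 14.18, 14.29, 14.22 and 14.88 in T4 and 13.96, 14.63, 14.83 and 14.46 in T8. All 16 injured arrays lay above all T0 arrays. The mean was 81.3-fold higher at T1 (log2 6.35 ± 0.50 SE, adjusted p = 3.9e-10) and 35.2-fold at T8 (log2 5.14 ± 0.50 SE, adjusted p = 1.87e-08). Type V collagen, which nucleates and thins type I fibrils, also rose at all 4 times, with T1 differences of 2.63 for Col5a1, 2.68 for Col5a2 and 0.82 for Col5a3. Col27a1 was called higher only at T4 and T8 (0.91 and 1.11), and its differences at T1 and T2 were 0.46 and 0.60. No difference from T0 passed the test at any time in the cartilage collagen Col2a1, in Col24a1 or in Col11a1.

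Col11a2, the other fibrillar chain called, went down. It read 13.13, 12.58, 13.04 and 12.87 in T0, 11.82, 11.37, 11.58 and 11.62 in T1, 11.58, 11.95, 11.59 and 11.34 in T2, 12.23, 12.16, 12.04 and 11.78 in T4 and 12.36, 12.13, 11.96 and 12.32 in T8. Every injured array lay below every T0 array. The log2 difference was -1.31 ± 0.25 SE at T1 (adjusted p = 0.000135) and -0.71 ± 0.25 SE at T8 (adjusted p = 0.0246). The other members called lower against T0 were Sparcl1 and Col9a2 at T1, Loxhd1 at T2, Col4a3 at T4, and Loxhd1 and Col20a1 at T8.

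Fibril-associated collagens, which decorate the surface of fibrils without forming their own, moved in both directions. Col12a1 read 3.31, 3.00, 3.09 and 1.35 in T0, where no array was above background, and 5.85, 6.57, 5.72 and 6.01 in T1. It read 5.95, 5.03, 5.67 and 6.06 in T2, 5.24, 5.31, 4.96 and 5.34 in T4 and 5.31, 6.14, 6.02 and 5.84 in T8. Against the lowest signals well above background in T0 it was at least 4.04-fold higher at T1 and at least 3.14-fold, 2.27-fold and 3.48-fold at the later times (adjusted p = 1.45e-08 at T1 and 5.59e-08 at T8). Col16a1 and Col22a1 were also called higher at all 4 times, by 1.70 and 1.05 at T1. Col14a1, another fibril coat collagen, was called late, on a mean of probes that differed by more than 1 log2 in their change at T4 and T8. By the brightest probe it was called at neither time. It read 2.46, 2.69, 2.12 and 2.75 in T0, 2.12, 3.08, 2.44 and 3.27 in T1, 3.54, 2.47, 2.76 and 4.41 in T2, 3.88, 4.12, 3.62 and 4.43 in T4 and 3.56, 4.56, 4.37 and 3.69 in T8, and was called higher at T4 and T8 (adjusted p = 0.0027 and 0.00202). Since it was not above background on any T0 array, only a bound of at least 1.01-fold holds at T8. Col20a1 was lower at T8 only (-0.81, adjusted p = 0.0218).

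Type IX collagen coats cartilage fibrils, and its chains did not move together. Col9a2 was lower at T1 (-0.64, adjusted p = 0.0118), Col9a3 was higher at T1 (0.51, adjusted p = 0.0275, not called without T0 replicate 1 or 3 or T1 replicate 3 or 4), and Col9a1 was higher at T1 and T2 (0.92 and 0.62). The Col9a1 mean rested on probes called in opposite directions at all 4 times. At T1 the glycine-repeat probe printed above was 2.38 higher and the other, 36665 bases away, was at -0.54.

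Network-forming and beaded filament collagens rose at every time except for Col10a1, the collagen of growth plate cartilage. The 3 type VI chains, which form beaded filaments around cells, differed from T0 at T1 by 3.70 for Col6a1, 2.92 for Col6a2 and 5.45 for Col6a3, and at T8 by 3.4, 2.64 and 4.56, and Col6a3 was well above background on 1 of the 4 T0 arrays. Col8a1, of the type VIII network of vessel walls, rose 43.7-fold at T1 (log2 5.45) and was still 3.10 above T0 at T8. Its partner Col8a2 was not above background in T0 and was at least 2.37-fold higher at T1 and at least 5.9-fold at T8. Col7a1, the anchoring fibril collagen, rose by 3.64 at T1 and by 1.71 at T8. In the transmembrane collagens Col17a1 and Col23a1 no difference from T0 passed the test.

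Basement membrane collagens included genes with large lasting rises. Col15a1 and Col18a1, multiplexins whose ends are released as endostatin and its relative, differed from T0 by 4.74 and 3.31 at T1 and by 3.67 and 2.38 at T8. Col4a2 read 7.43, 7.58, 7.25 and 8.03 in T0, 9.89, 10.45, 9.58 and 10.74 in T1 and 9.24, 8.85, 9.09 and 10.06 in T2. It came down to 8.42, 8.58, 8.60 and 8.58 in T4 and 8.48, 8.11, 8.62 and 8.48 in T8. The T8 arrays remained above all T0 arrays, and the log2 difference was 2.60 ± 0.25 SE at T1 (adjusted p = 1.46e-08) and 0.85 ± 0.25 SE at T8 (adjusted p = 0.00859). Col4a4 and Col4a5, of the minor type IV networks, were higher at all 4 times, by 1.19 and 0.67 at T1. Col4a3 was called lower at T4 alone (-0.65, adjusted p = 0.0261).

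Col4a1, which shares the printed interval with Col4a2, had probes that disagreed. Averaged over its probes it read 12.84, 11.64, 12.74 and 11.62 in T0, 12.81, 12.98, 12.82 and 12.91 in T1 and 13.84, 12.53, 12.69 and 12.87 in T2. It read 12.05, 12.05, 12.03 and 12.25 in T4 and 11.99, 12.26, 12 and 12.01 in T8. The groups overlapped, although the fit called it higher at T1 (0.67 ± 0.25 SE, adjusted p = 0.0333) and T2 (0.77, adjusted p = 0.0164). The downstream probe alone (chr16:83157546-83157605 of rn4) was 2.58 higher at T1, where Col4a2 was 2.60 higher. The upstream probe differed by -1.24. That probe read 15.25, 13.27, 15.19 and 12.95 in T0 and 15.35 in T2 replicate 1, and from 12.70 to 13.36 on the other time-course arrays. Within the first and the second scan session the mean of both probes differed between T1 and T0 by 0.02 and 1.28, and between T2 and T0 by -0.18 and 1.73.

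**Figure D2:**
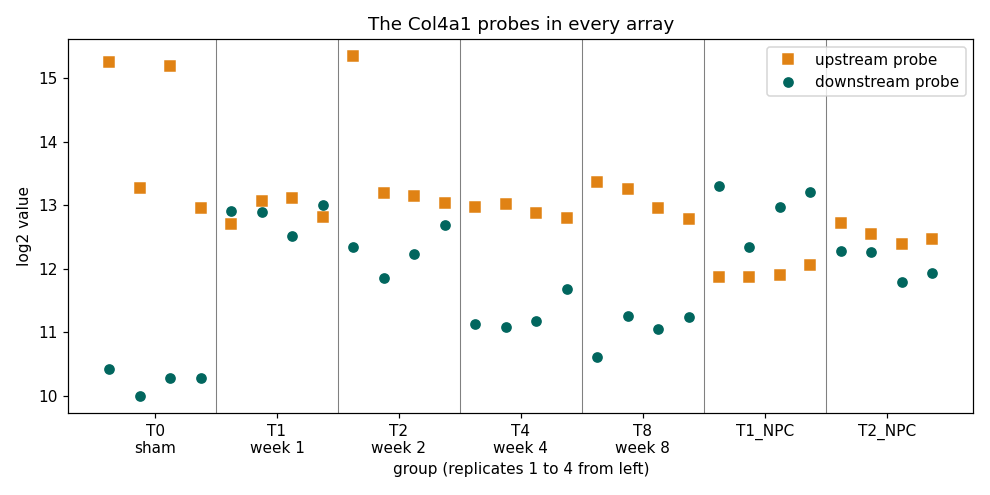
Log2 value of each Col4a1 probe (points of a colour) in each of the 28 arrays (horizontal axis, by group, replicates 1 to 4 from the left). The downstream probe is higher on every T1 and T2 array than on every T0 array, while the upstream probe stands above 15 on T0 replicates 1 and 3 and T2 replicate 1 and between 12.70 and 13.36 on the other time-course arrays.

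All 11 laminin chains on the array were higher at T1 (median log2 difference 1.27), and 9 of them were higher at all 4 times. Lama1, the alpha chain of the laminin found in meningeal and embryonic basement membranes, read 5.04, 5.58, 5.20 and 6.20 in T0 and 7.34, 7.67, 7.51 and 8.38 in T1. It read 7.67, 6.99, 7.36 and 8.45 in T2, 7.55, 8.07, 8.07 and 7.73 in T4 and 7.78, 7.36, 8.48 and 7.74 in T8. The injured arrays did not overlap T0, and the difference was 2.22 ± 0.32 SE at T1 and 2.34 ± 0.32 SE at T8 (adjusted p = 5.53e-06 and 3.39e-06). Lama2, the alpha chain of muscle, Schwann cell and vessel laminins, read 7.14, 7.33, 7.23 and 7.38 in T0, 8.88, 9.61, 9.07 and 9.51 in T1 and 9.65, 9.03, 9.41 and 10.28 in T2. It read 9, 8.92, 8.98 and 9.29 in T4 and 9.30, 9.42, 9.87 and 9.50 in T8, and every injured array was above T0 (log2 2.00 at T1 and 2.25 at T8, adjusted p = 3.96e-06 and 9.3e-07).

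Among the other laminins, the beta 1 chain Lamb1 rose by 3.42 at T1 and the gamma 1 chain Lamc1 by 2.02, and both are shared by most laminin trimers. The vascular chains Lama4 and Lama5 were also higher, Lama4 by at least 3.4-fold at T1 and at least 2.51-fold at T8, since no T0 array measured it above background. Lama5 read 7.26, 7.64, 7.20 and 7.72 in T0, 8.26, 8.14, 8.12 and 8.62 in T1, 8.91, 8.81, 8.79 and 8.65 in T4 and 8.74, 8.64, 8.76 and 8.79 in T8. Its difference from T0 was 0.83 at T1 and 1.28 at T8. The Lama5 probes differed by more than 1 log2 in their change at T1, T2, T4 and T8. The synaptic and vascular chain Lamb2 was 1.1 above T0 at T1 and 1.98 at T8. Lama3, an alpha chain of epithelial laminin, was higher at all 4 times (0.96 at T1), while its partner Lamb3 was called against T0 at T1 alone. Lamb3 read 7.56, 7.47, 7.46 and 7.49 in T0, 8.44, 8.67, 8.06 and 7.80 in T1, 7.55, 7.41, 7.5 and 8.09 in T4 and 7.81, 7.60, 7.49 and 7.61 in T8. These are means of 4 probes that differed by more than 1 log2 in their change. Fitted singly, Lamb3 probes were called in opposite directions at T4 and at T8.

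**Figure D3:**
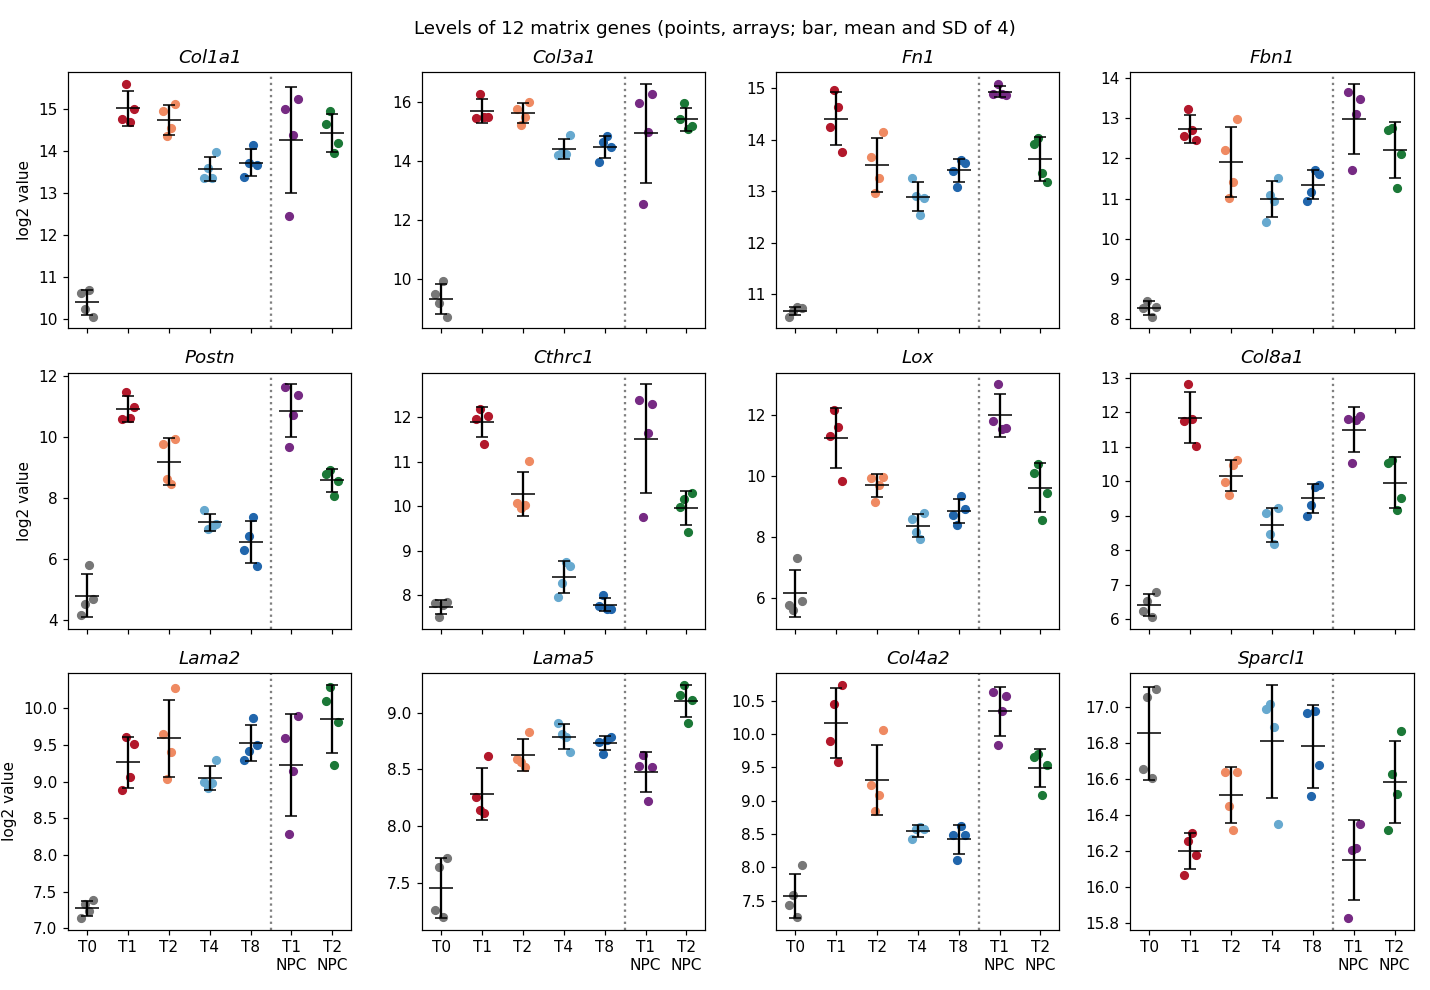
Log2 values of 12 of the genes (panels) in the 7 groups (horizontal axis), with each array as a point and the mean and SD of the 4 arrays as bars. The means of the injured groups lie above T0 for every gene shown but Sparcl1, with Cthrc1 at T8 back at the T0 level, and the T1_NPC values of Col1a1, Col3a1 and Cthrc1 spread further than those of T1.

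Microfibril and elastic fibre proteins rose at T1 in 7 of 8 cases, Fbln7 being called from T2 on. Fbn1, the main microfibril protein and a scaffold for latent TGF-beta, read 8.27, 8.46, 8.06 and 8.31 in T0 and 12.55, 13.24, 12.71 and 12.45 in T1. It read 12.22, 11.02, 11.41 and 12.98 in T2, 10.41, 11.08, 10.93 and 11.51 in T4 and 10.93, 11.16, 11.70 and 11.60 in T8. No injured array overlapped T0, and the mean was 22.0-fold higher at T1 and 8.41-fold at T8 (adjusted p = 5.37e-09 and 1.82e-06). Fbn2, the fetal fibrillin, read 6.24, 6.40, 6.04 and 6.56 in T0, 8.16, 8.72, 8.10 and 8.56 in T1 and 8.39, 7.47, 8.47 and 8.40 in T2. Its later values were 7.15, 7.04, 6.43 and 7.43 in T4 and 7.02, 6.91, 7.29 and 7.08 in T8, and the T4 arrays overlapped T0. The difference went from 2.08 at T1 to 0.77 at T8 (adjusted p = 1.84e-07 and 0.0117).

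Fibulins link elastic fibres, basement membranes and cells, and they took different courses. Fbln1 was 1.75 above T0 at T1 and 2.59 at T8. Fbln2 was called at T1 alone: it read 7.99, 9.80, 8.54 and 9.85 in T0, 11.15, 12.18, 11.35 and 11.60 in T1, 10.04, 9.14, 9.82 and 10.52 in T2 and 9.07, 8.80, 9.12 and 9.50 in T8, with 3.12% of its week 1 log2 difference left at week 8. Fbln5, needed for elastic fibre assembly, read 5.80, 5.73, 5.44 and 5.66 in T0, 7.00, 6.62, 6.86 and 7.35 in T2, 6.34, 6.42, 6.11 and 5.71 in T4 and 6.10, 6, 6.53 and 6.13 in T8, and differed by 1.31 at T1 and 0.53 at T8. Emilin1, a microfibril protein that restrains TGF-beta processing, was higher at all 4 times (2.83 at T1 and 2.36 at T8), and Emilin3 at T1 and T8 (0.46 and 0.46). Each Emilin3 call was lost without any of 4 of the 8 arrays compared.

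Fn1, which cells assemble into the provisional matrix of wounds, read 10.57, 10.67, 10.75 and 10.73 in T0 and 14.25, 14.97, 14.63 and 13.77 in T1. It read 13.67, 12.97, 13.25 and 14.15 in T2, 13.25, 12.91, 12.55 and 12.88 in T4 and 13.40, 13.09, 13.60 and 13.54 in T8. The injured arrays were all above T0, 13.2-fold at T1 (log2 3.72 ± 0.24 SE, adjusted p = 1.66e-11) and 6.62-fold at T8 (log2 2.73 ± 0.24 SE, adjusted p = 5.05e-09). Sparc, a collagen-binding matricellular protein, rose little. It read 16.30, 16.19, 16.08 and 16.27 in T0, 16.87, 16.76, 16.77 and 16.53 in T1 and 16.68, 16.73, 16.72 and 16.81 in T8, and was called at all 4 times (0.52 at T1). It read 16.71, 16.93, 16.83 and 16.71 in T2 and 16.59, 16.68, 16.46 and 16.84 in T4. Its relative Sparcl1, an astrocyte and vessel protein, read 16.66, 17.06, 16.61 and 17.10 in T0 and 16.07, 16.26, 16.30 and 16.18 in T1, and was lower at T1 (-0.66 ± 0.16 SE, adjusted p = 0.0018). It read 16.64, 16.45, 16.32 and 16.64 in T2, 16.99, 17.02, 16.89 and 16.35 in T4 and 16.97, 16.51, 16.98 and 16.68 in T8, and was not called against T0.

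Postn and Cthrc1, which activated fibroblasts secrete, rose at week 1 and then came down. Postn read 4.17, 4.53, 5.82 and 4.70 in T0 and 10.57, 11.47, 10.62 and 10.99 in T1, 69-fold higher, with 3 of the 4 T0 arrays above background (log2 6.11 ± 0.42 SE, adjusted p = 4.65e-11). It read 9.76, 8.61, 8.45 and 9.92 in T2, 7.61, 6.99, 7.06 and 7.16 in T4 and 6.31, 6.76, 7.39 and 5.78 in T8. At T8 the lowest array reached into the T0 range, and the mean was still 3.38-fold higher (adjusted p = 0.00165), which is 28.7% of the week 1 log2 difference. Cthrc1 read 7.84, 7.51, 7.79 and 7.85 in T0 and 11.95, 12.17, 11.39 and 12.02 in T1, 17.6-fold higher (adjusted p = 5.89e-09). In T2 it read 10.08, 9.96, 10.03 and 11.01 and in T4 7.96, 8.28, 8.76 and 8.65, where the test was no longer passed (adjusted p = 0.18). In T8 it read 7.77, 8.00, 7.69 and 7.70 and overlapped T0, with 1.04% of the week 1 difference left.

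Lysyl oxidases, which crosslink collagen and elastin, were higher at all 4 times except for Loxl4. Lox read 5.78, 5.61, 7.31 and 5.88 in T0 and 11.34, 12.17, 11.63 and 9.86 in T1. It read 9.95, 9.14, 9.72 and 9.98 in T2, 8.58, 8.18, 7.95 and 8.78 in T4 and 8.73, 8.40, 9.35 and 8.92 in T8. The difference was 34.4-fold at T1 (log2 5.11 ± 0.46 SE, adjusted p = 3.92e-09) and 6.52-fold at T8 (log2 2.70 ± 0.46 SE, adjusted p = 4.04e-05), and no injured array overlapped T0. Loxl1, which binds elastic fibres, differed by 4.80 at T1 and 4.22 at T8, Loxl2, which acts on type IV collagen, by 3.21 and 2.00, and Loxl3 by 1.97 and 1.84. Of the genes that matched by name only, Loxhd1 read 3.78, 3.41, 4.45 and 3.24 in T0, 4.47, 2.74, 2.61 and 2.83 in T1, 2.69, 2.40, 1.33 and 2.36 in T2, 2.90, 3.38, 2.15 and 2.85 in T4 and 2.62, 1.34, 2.62 and 3.42 in T8, and Col4a3bp was called at no time. Loxhd1 was called lower at T2 and T8, but since 1 of the 4 T0 arrays and none of the T2 and T8 arrays measured it above background, no fold is given.

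Once the cord was injured, the main movement was a decline of early matrix genes. Between T1 and T2, 0 members were higher and 4 lower (0.815% and 0.665% of all features, 1.48% together): Postn (-1.73 ± 0.42 SE, adjusted p = 0.038), Fbln2 (-1.69, adjusted p = 0.0292), Col8a1 (-1.68, adjusted p = 0.0267) and Cthrc1 (-1.61, adjusted p = 0.0301). No member was called without T1 replicate 2, without T2 replicate 1, 2 or 3, or with a fit to the compared groups alone. Between T2 and T4 limma called 0 members (0.0761% of all features) and between T4 and T8 also 0 (0.0902%). At an unadjusted p under 0.05 the counts were 17, all lower at T4, and 3. In either direction, 9.02% and 4.84% of all features passed there.

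From T1 to T8, 5 members were higher and 19 lower (5.45% and 4.42% of all features, 9.87% together). The 24 calls became 14 without T1 replicate 2, 15 without T8 replicate 1 or 4, and 4 with the 12 arrays on which both sources agree. The falls were largest in Postn (-4.35 ± 0.42 SE, adjusted p = 2.59e-07) and Cthrc1 (-4.09 ± 0.38 SE, adjusted p = 1.5e-07), whose T8 arrays all lay below all T1 arrays. Fbln2 (-2.45), Lox (-2.40), Col8a1 (-2.35), Col7a1 (-1.93), Col4a2 (-1.74), Fbn1 (-1.39), Fbn2 (-1.31) and Col1a1 (-1.30) followed. The other 9 lower members, Loxl2, Col5a2, Fn1, Col18a1, Col4a1, Fbln5, Lamc1, Col9a1 and Lamb3, differed by -1.22 to -0.61. Higher at T8 were Col14a1 (1.32, measured at T1 below background, so at least 1.29-fold), Col8a2 (1.32), Lamb2 (0.89), Sparcl1 (0.58) and Lama5 (0.45). By the brightest probe Col14a1, Col4a1, Col9a1, Lamb3 and Lamc1 were not called, and the differences of Col4a1 and Lamb3 turned positive. The probes of Col4a1, Col9a1 and Lamb3 were more than 1 log2 apart in this change. Leaving out 1 array lost the Lama5 call in 6 cases, the Col14a1 and Sparcl1 calls in 4 each and the Lamb2 call in 2. Among the falls it lost Col4a1 in 8 cases, Col18a1 and Col9a1 in 6 each and Col1a1 and Lamb3 in 5 each. Col5a2, Fbn1 and Lamc1 were lost in 4 each and Loxl2 in 2, and the other falls in none. With slide as a fixed block the falls of Col1a1, Col18a1, Col5a2, Fbn1 and Col9a1 were not called. For Col3a1 and Col1a2 the T8 to T1 differences were -1.21 and -0.54, and neither passed (adjusted p = 0.145 and 0.505). Even so, the Col3a1 arrays of T8 (13.96 to 14.83) all lay below those of T1 (15.45 to 16.27), while the Col1a2 arrays overlapped. The fit shares its spread with T1_NPC, where Col3a1 was at 12.54 on replicate 2 and at 14.98 to 16.25 on the others.

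A test of any difference among the 4 injured groups called 17 members (7.73% of all features), 30 when the time-course arrays were fitted alone and 1 with the 12 agreeing arrays. Of the 17, 13 had their highest mean at T1, Col4a1 at T2, Lama5 and Sparcl1 at T4 and Col8a2 at T8.

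**Figure D4:**
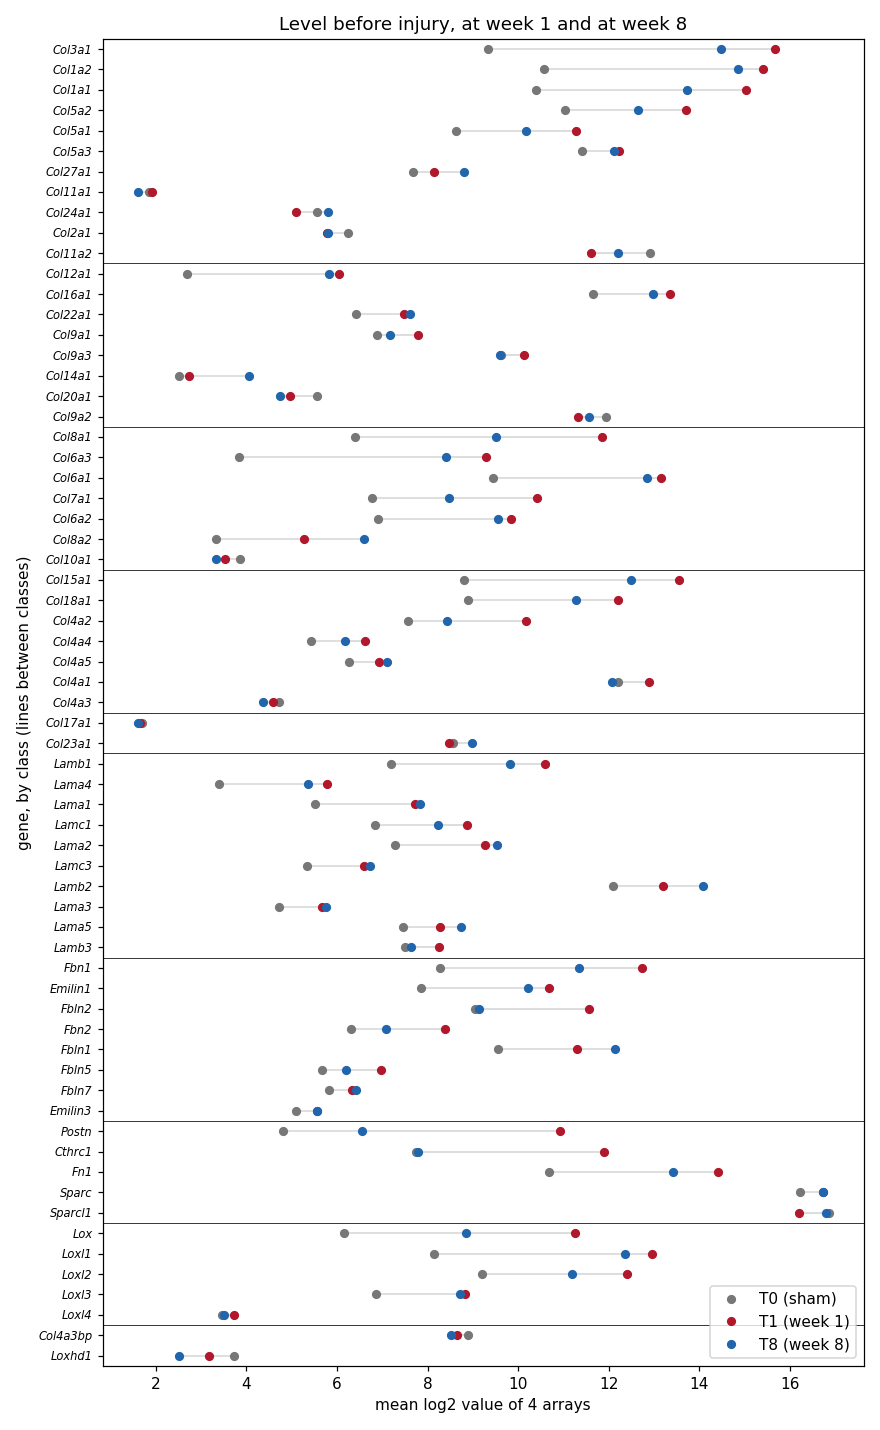
Mean log2 value of each of 65 of the genes (rows, by class) in the 4 T0, the 4 T1 and the 4 T8 arrays (points joined by a line). Cthrc1 stands far to the right at T1 and at its T0 point at T8, and Postn returns most of the way. Col1a2 and most laminin chains keep their T8 points near those of T1, and Col3a1 keeps 81% of its week 1 log2 difference from T0.

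Most listed genes for the folding, hydroxylation and processing of collagen were higher as well. Of 19 on the array, 17 were higher at T1 and 13 at T8, where 19.1% and 18.2% of all features were higher, with Pcolce, the enhancer of C-propeptide removal, at 3.76, Crtap at 2.04, Fkbp10 at 2.01 and Adamts2, which removes N-propeptides, at 1.86 on the log2 difference scale at T1. In this list only Adamts3 was lower at T8 (-0.53). Of 10 small leucine-rich proteoglycans, which bind fibrils and set their spacing, 7 were higher at T1 and 7 at T8, beside the same 19.1% and 18.2% of all features, led at T1 by Lum (4.54) and Dcn (3.75) and at T8 by Lum (3.84) and Dcn (3.64), while Chad was lower at T8 (-1.08). Of 5 basement membrane partners, Sdc1 (3.93), Nid2 (2.76) and Nid1 (1.70) were higher at T1 (19.1% of all features).

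Elastic fibre partners were higher at T1 in 7 of 9 cases and at T8 in 8 (19.1% and 18.2% of all features), led at T1 by Ltbp2 (6.16) and Mfap4 (3.10). Efemp1 was not called at T1 (0.90) and was 3.89 above T0 at T8. Of 12 TGF-beta ligands, receptors and fibrosis targets, 10 were higher at T1 and 11 at T8 (19.1% and 18.2% of all features) and none lower. Among those higher at T1 were Fap (5.59), the ligand Tgfb1 (3.12) and Thbs2 (3.02). Thbs1, an activator of latent TGF-beta, was 2.16 at T1 and -0.13 at T8, where it did not pass.

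Markers of the cells that make or meet this matrix moved with the groups, and their counts stand beside 19.1% of all features higher and 25.1% lower at T1, and 18.2% and 21.5% at T8. Of 11 fibroblast and perivascular markers 9 were higher and 1 lower at T1, and their mean per array ranged from 9.87 to 10.07 in T0, from 11.08 to 11.45 in T1 and from 10.78 to 10.98 in T8. Leptomeningeal markers (8) went from 9.54 to 9.82 in T0 to 10.34 to 10.89 in T1 and 12.31 to 12.88 in T8, with 4 higher and 1 lower at T1 and all 8 higher at T8. Schwann cell markers (9) went from 7.54 to 7.84 in T0 to 9.13 to 9.77 in T1 and 10.49 to 10.83 in T8, with 7 higher and 2 lower at T1 and 8 higher at T8. Endothelial markers (10) ranged from 8.55 to 9.07 in T0, from 9.23 to 9.39 in T1 and from 8.92 to 9.21 in T8, with 5 higher and 1 lower at T1 and 3 higher at T8. Of 8 astrocyte markers 1 was higher and 4 lower at T1, and 1 higher and 1 lower at T8, and of 8 oligodendrocyte markers 5 were lower at T1 and 6 at T8. Macrophage and microglia markers were all 10 higher at T1 and at T8, while of 7 neuron markers 6 were lower at both times and none higher. Cartilage and bone markers (11) gave 2 higher and 5 lower at T1, and skeletal muscle markers (10) gave 3 and 4. The 2 of 11 are close to the 19.1% of all features that were higher. The part of these cell types in the matrix values was not tested.

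Few matrix genes were called between acutely transplanted and injured cord at week 1. In T1_NPC against T1, 1 member was higher and 1 lower (5.45% and 6.46% of all features, 11.9% together), and the median log2 difference over the 66 was -0.01. Fbln5 read 6.66, 7.52, 6.66 and 7.05 in T1 and 7.55, 8.04, 7.68 and 7.65 in T1_NPC, and it was higher by 0.75 ± 0.19 SE (adjusted p = 0.0113). Col11a2 read 10.98, 9.50, 10.82 and 11.40 in T1_NPC and differed by -0.92 ± 0.25 SE (adjusted p = 0.0178). All T1_NPC arrays lay above all T1 arrays for Fbln5, while for Col11a2 the groups overlapped. Neither passed when only T1 and T1_NPC were fitted, and 4 members were called without T1_NPC replicate 1 or 4. None of the scar genes followed in every sample was called. In T1_NPC, Col1a1 read 15.01, 12.45, 14.38 and 15.26, Col3a1 15.94, 12.54, 14.98 and 16.25 and Col1a2 15.64, 13.07, 15.04 and 15.96. Fn1 read 14.89, 15.09, 14.89 and 14.86, Postn 11.64, 9.68, 10.72 and 11.37 and Cthrc1 12.38, 9.75, 11.63 and 12.29. The differences from T1 were -0.75 ± 0.40 SE for Col1a1, -0.75 ± 0.50 SE for Col3a1 and 0.53 ± 0.24 SE for Fn1. Without T1_NPC replicate 2 they were -0.15, 0.05 and 0.48. Lox, at 11.82, 13.03, 11.56 and 11.60, differed from T1 by 0.76 ± 0.46 SE, and overlapped it.

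Replicate 2 of T1_NPC stood apart in most of the members. It lay below the other 3 T1_NPC arrays in 44 of the 66 genes and above them in 15. Such counts occurred elsewhere, as T2_NPC replicate 3 lay below its group in 45 and T2 replicate 4 above its group in 50. More than 1 below the mean of the others were 28 genes (9.47% of all features), beside 8 (2.86%) for T2_NPC replicate 3. On T1_NPC replicate 2, Col3a1 was at 12.54, with 14.98 to 16.25 on the others. Col15a1 was -3.12 and Fbln1 -2.61 from the mean of the others, whereas Col20a1 was 1.40 and Lox 1.37 from it. The mean of the leptomeningeal markers was 9.19 on that array and 10.29 to 11.18 on the others, and that of the macrophage markers 11.17 against 11.70 to 12.09, and their part in its matrix values was not tested. Without it, Fbln1 (0.91) and Fbln5 (0.65) were higher and Col11a2 (-0.53) lower, with 8.51% of all features called, and 49 of the 66 differences from T1 were positive with a median of 0.17.

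**Figure D5:**
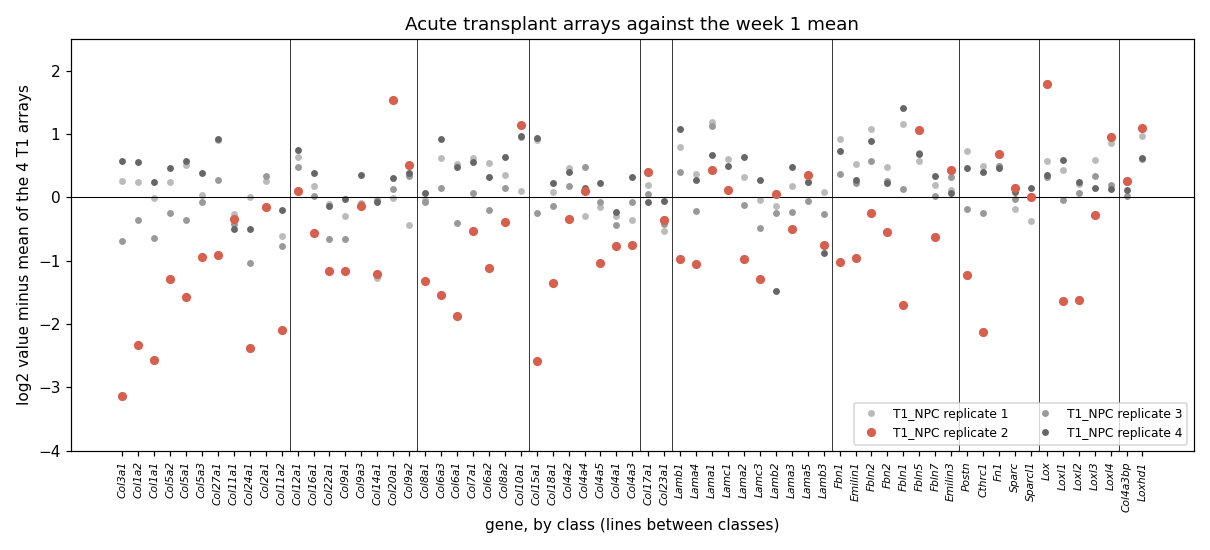
Log2 value of each of 65 of the genes (horizontal axis, by class) on each T1_NPC array (points) minus the mean of the 4 T1 arrays. Replicate 2 (red) lies below the other replicates for most collagens, with Col3a1 at 12.54 against 14.98 to 16.25, and above them for Lox and Col20a1.

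Subacute transplantation gave as few calls. In T2_NPC against T2, 1 member was higher and 1 lower (4.62% and 4.85% of all features, 9.47% together), and the median difference was 0.12. Lama5 read 8.59, 8.57, 8.52 and 8.83 in T2 and 9.16, 9.24, 8.91 and 9.11 in T2_NPC (0.48 ± 0.13 SE, adjusted p = 0.0218). Lamb3 read 7.58, 7.79, 7.65 and 7.80 in T2 and 7.01, 6.99, 7.30 and 7.17 in T2_NPC (-0.59 ± 0.19 SE, adjusted p = 0.0494). For Lama5 all T2_NPC arrays lay above all T2 arrays, and for Lamb3 all lay below. No member was called without T2 replicate 1, 2 or 3, without T2_NPC replicate 1 or 2, or with slide as a random block, and 1 was called without T2_NPC replicate 4. The Lamb3 call was lost whichever of the 8 arrays was left out, and also by 75th percentile scaling, by the brightest probe and with a replicate block. Col1a1 read 14.66, 14.97, 13.95 and 14.21, Col3a1 15.41, 15.94, 15.07 and 15.16 and Fn1 13.92, 14.04, 13.35 and 13.18 in T2_NPC, with differences from T2 of -0.31, -0.21 and 0.11. Col1a2 read 15.62, 15.79, 14.82 and 15.19, Postn 8.80, 8.90, 8.05 and 8.56 and Cthrc1 9.98, 10.15, 9.42 and 10.30, and none of these passed the test, the differences being 0.22, -0.61 and -0.31.

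None of the other members followed in every sample was called in either transplanted group. Col4a1 read 12.59, 12.11, 12.44 and 12.64 in T1_NPC and 12.50, 12.40, 12.09 and 12.20 in T2_NPC. Col4a2 read 10.63, 9.83, 10.34 and 10.57 in T1_NPC and 9.65, 9.70, 9.08 and 9.54 in T2_NPC. Their differences from T1 and T2 were -0.44 and -0.68 for Col4a1 and 0.18 and 0.18 for Col4a2. Lama1 read 8.91, 8.16, 8.85 and 8.39 in T1_NPC and 8.62, 8.78, 7.68 and 8.87 in T2_NPC. It differed from the injured groups by 0.85 ± 0.32 SE and 0.87 ± 0.32 SE (adjusted p = 0.0892 and 0.0931). Lama2 read 9.59, 8.29, 9.14 and 9.90 in T1_NPC and 10.10, 10.29, 9.23 and 9.82 in T2_NPC. Fbn1 read 13.65, 11.71, 13.11 and 13.47 in T1_NPC and 12.71, 12.76, 11.26 and 12.10 in T2_NPC. Fbn2 read 8.87, 7.84, 8.65 and 8.61 in T1_NPC and 8.08, 8.37, 7.92 and 7.87 in T2_NPC. In all 3 of these genes replicate 2 was the lowest T1_NPC array. Col12a1 read 6.67, 6.14, 6.51 and 6.78 in T1_NPC and 6.32, 6.27, 5.41 and 5.90 in T2_NPC. Lox read 10.12, 10.39, 8.56 and 9.44 in T2_NPC.

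The matricellular proteins Sparc and Sparcl1 also gave no call. Sparc read 16.55, 16.87, 16.70 and 16.82 in T1_NPC and 16.72, 17.06, 16.97 and 16.83 in T2_NPC. Sparcl1 read 15.83, 16.21, 16.22 and 16.35 in T1_NPC and 16.32, 16.63, 16.52 and 16.87 in T2_NPC. Members named for a call elsewhere are given for the transplanted groups too. Col14a1 read 1.45, 1.52, 2.69 and 2.65 in T1_NPC and 3.76, 4.30, 3.19 and 4.03 in T2_NPC. Loxhd1 read 4.13, 4.26, 3.76 and 3.78 in T1_NPC and 2.43, 1.58, 2.43 and 2.51 in T2_NPC, with no array above background in either. Lama5 read 8.53, 8.63, 8.22 and 8.52 and Lamb3 8.33, 7.49, 7.98 and 7.37 in T1_NPC. Against T1 neither of these laminin chains passed the test. In T2_NPC, Fbln5 read 7.36, 7.09, 7.23 and 7.13 and Col11a2 11.48, 11.57, 11.60 and 11.61. The difference between the subacute and the acute effect, tested in limma, was called for 0 members (0.299% of all features). It passed an unadjusted p under 0.05 in 2 members, where 11.2% of all features did. Each transplanted group was hybridised on a slide of its own, T1_NPC on slide 3 by the matched scanner outputs and T2_NPC on slide 7. By the same match all 8 transplant arrays were scanned in session 3, which held no time-course array. Slide, session and transplant cannot be told apart.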

How the data were processed

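For every single-dye array the authors deposited scanner output, with an intensity per spot from Agilent Feature Extraction 10.7.1.1, and a matrix of log2 values after background correction and quantile normalization between arrays. The matrix was the main source, since the study tested it. Means were taken over its 43379 non-control spots by probe (41012) and then by gene name (35469 features), with no filter on dim probes. The 66 members were taken by name pattern, and the values of 1 of them and of some listed genes are not reported here. Above-background flags came from scanner outputs matched to matrix columns by rank order (Spearman's rho 1.0 for the match, at most 0.993 for the next), and this departs from the deposited sample for 16 arrays. No spot was saturated.

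All 28 arrays entered a single group-means fit in limma 3.58.1 (R 4.3.3), with eBayes moderation (2.26 prior degrees of freedom) and p-values adjusted over all features by Benjamini-Hochberg. The script was tested on simulated data. Where no array of the lower group was well above background, "at least" folds set each array at its lowest signal well above background or its own value, whichever is higher. Precision is limited by 4 arrays per group. Members named with all array values were a set of 16 and the largest called rise and fall of each comparison. Probe positions are those of the array annotation (rn4), promoters are RefSeq's on GRCr8, and exons of the probes were not analysed here. The members and lists were chosen with earlier results of these data known. Alternatives were other normalizations, a filter on dim probes, single probes, slide and session terms, replicate blocks and leaving out each array. Files were read with Python 3.11.15 and pandas 2.3.3.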

Additional observations from a re-analysis of the deposited data

Results flagged for a closer look

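Within groups of 4 arrays, 13 of the 154 sets of values of the named genes had an array that stood apart from the other 3 by Dixon's test, which flags about 1 set in 20 by chance. Col3a1 was at 16.27 in T1 replicate 2, with the others from 15.45 to 15.49, and at 14.88 in T4 replicate 4, with the others from 14.18 to 14.29. Col4a1 was at 12.25 in T4 replicate 4 (12.03 to 12.05 on the others) and at 12.26 in T8 replicate 2 (11.99 to 12.01). Col4a2 was at 8.42 in T4 replicate 1 (8.58 to 8.60). Col12a1, which no T0 array measured above background, was at 1.35 in T0 replicate 4 (3.00 to 3.31).

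Fn1 was at 15.09 in T1_NPC replicate 2 (14.86 to 14.89), the array on which most collagens were lower than on the other T1_NPC arrays. Cthrc1 was at 7.51 in T0 replicate 2 (7.79 to 7.85) and at 11.01 in T2 replicate 4 (9.96 to 10.08). Lox was at 7.31 in T0 replicate 3 (5.61 to 5.88), still below every injured array. Fbn2 was at 7.47 in T2 replicate 2 (8.39 to 8.47). Loxhd1 was at 4.47 in T1 replicate 1 (2.61 to 2.83) and at 1.58 in T2_NPC replicate 2 (2.43 to 2.51).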

How the results depend on the processing

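With scanner outputs under their deposited samples, 0 members were called in T1, T2, T4 and T8 against T0, in T2 and T8 against T1, in both transplant comparisons and among the injured groups. Under every other alternative that could be fitted to a gene (leaving out arrays, testing single probes and requiring a change of at least 2-fold not counted), 40 of 52, 42 of 47, 37 of 46 and 38 of 48 calls against T0 at T1, T2, T4 and T8 kept their call and direction, as did 0 of 4 for T2 against T1, 3 of 24 for T8 against T1 and 0 of 2 for each transplant comparison. Within each scan session, called members had the same sign as in the whole data (52 of 52, 46 of 47, 46 of 46 and 48 of 48), the exception being Col4a1 at T2. Scaling to the 75th percentile moved the median of all features at T1 from -0.10 to -0.27 and turned the sign of no called member.

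The 12 agreeing arrays gave 0 calls for T2 against T1, 4 for T8 against T1, 8 for T2_NPC against T2 and 1 among the injured groups. A fit to the compared groups alone gave 0 for T2 against T1 and for T1_NPC against T1. For T4 against T2, 1 member was called with slide as a fixed block, 2 by rank order, normexp or without dim probes, 3 by 75th percentile or trend, and 4 with time-course arrays alone, a session block or a random slide block. T8 against T4 gave 1 by 75th percentile, normexp, without dim probes, with session or with a random slide block. At a minimum change of 2-fold, 40, 40, 34 and 37 members were called against T0 at T1, T2, T4 and T8, while T8 against T1 gave 14 and both transplant comparisons 0. T1_NPC against T1 gave 5 by 75th percentile, 4 by brightest probe, 6 by single probes and 1 with a random slide block. T2_NPC against T2 gave 1 by 75th percentile, 4 by normexp, without dim probes or by brightest probe, 5 by single probes and 0 with a random slide block. The interaction gave 1 by 75th percentile, and the test among injured groups 30 with the time-course arrays alone. The causes were not tested.

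Same-numbered samples did not deviate together (mean correlation -0.003 over 84 pairs, from -0.339 to 0.297, against 0.002 for others). No pairing by number was seen, although a weak one could look the same. With the replicate block, the calls were 52, 47, 45 and 49 at T1, T2, T4 and T8 against T0, 3 for T2 against T1, 22 for T8 against T1, 2 for T1_NPC, 1 for T2_NPC and 15 among the injured groups. Leaving out each array gave 49 to 54 calls at T1, 46 to 49 at T2, 41 to 47 at T4 and 43 to 49 at T8 against T0, 0 to 6 for T2 against T1 (0 without T1 replicate 2 or T2 replicate 1, 2 or 3), 0 to 1 for T4 against T2 and T8 against T4, 14 to 20 for T8 against T1 (14 without T1 replicate 2, 15 without T8 replicate 1 or 4), 2 to 4 for T1_NPC, 0 to 3 for T2_NPC (0 without T2 replicate 1, 2 or 3 or T2_NPC replicate 1 or 2), 0 for the interaction and 12 to 19 among the injured groups.

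Single genes reversed as follows. With scanner outputs as deposited, the log2 fold change of Col1a1, T8 vs T1 was 0.34, that of Fn1 0.24 and that of Fbn1 0.18, that of Col4a1, T1 vs T0 was -0.20, and that of Fbln5, T1_NPC vs T1 was -0.13. By the brightest probe, Col4a1 was at -1.24 in T1 vs T0, -0.49 in T2 vs T0 and 0.16 in T8 vs T1, and Lamb3 at -0.16 in T1 vs T0 and 0.31 in T8 vs T1, and the brightest Col4a1 probe is the upstream one. With the 12 agreeing arrays Col4a1 was at -0.18 in T2 vs T0. Precision is limited by 4 arrays per group, and 51 of the 66 genes were above background on every array.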
